A study of Solanum lycopersicum with 6 samples.

Results

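The genes described here act on the parts of the tomato fruit wall other than pectin: the expansin gene *EXP1* (Solyc06g051800.2), the cellulase genes *CEL1* (Solyc08g081620.2) and *CEL2* (Solyc09g010210.2), the endo-mannanase gene *MAN4a* (Solyc01g008710.2) and the xylosidase gene *XYL1* (Solyc10g047030.1). They were chosen by identifier, and all 5 were listed in each library and had enough reads to be tested, among 16737 genes tested of 23709 listed in at least 1 library. RNA was sequenced from pericarp, the fleshy wall of the fruit, of tomato (*Solanum lycopersicum*) harvested 38 days after anthesis. Of the 6 libraries 3 came from wild-type fruit and the other 3 carry the genotype label SlDof1 RNAi, in which double-stranded RNA is meant to silence the gene for a Dof zinc-finger transcription factor. All 3 RNAi libraries carry the title SlDof-8, and the labels name no cultivar, promoter or number of plants. No label gives the identifier of SlDof1, so its silencing was not checked here and the fruit is called RNAi-labelled.

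The primary wall of a fruit cell holds cellulose microfibrils tied together by hemicelluloses (xyloglucan, xylan and mannan) and embedded in pectin. Softening during ripening involves several kinds of wall protein at once. Expansins loosen the contacts between cellulose and hemicellulose without cutting them, endo-beta-glucanases (cellulases) cut glucan chains, endo-mannanases cut mannan chains, and beta-xylosidases release xylose from the ends of xylan fragments.

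Total expected counts were 9608643 to 10002358 per library, with overlap between the groups. On the second principal component of log2 CPM, which is counts scaled to library size (30.4% of the variance), 1 library of each group, wild-type 1 and RNAi-labelled 3, lay away from the other 4, at 32.6 and 32.2 against -18.3 to -13.7. FPKM is a fragment count divided by gene length and library total, so it can be compared between genes. The ripening gene *ACS2*, for an enzyme of ethylene synthesis, was at 436 to 586 FPKM in wild-type and 260 to 342 FPKM in RNAi-labelled libraries. This marker thus fell 1.76-fold (edgeR adjusted p = 0.00946), and the part of ripening stage in the results was not tested. The epidermal gene *CER6*, which acts in wax synthesis, was at 44.4, 33.6 and 34.4 FPKM in wild-type libraries and 51.5, 50.2 and 71.4 FPKM in RNAi-labelled libraries, which missed the threshold (edgeR adjusted p = 0.052), and its part in the results was not tested. Of the other markers, the cutin gene *CD1* was listed in 1 library alone, at 0.1 FPKM, and the ovule and seed gene *MBP3* was at 1.76 to 2.46 FPKM over all libraries.

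Transcripts of the 5 genes did not move together in RNAi-labelled fruit. *MAN4a* fell 10.2-fold, *XYL1* 5.09-fold and *CEL1* 1.83-fold, *CEL2* rose 5.54-fold, and *EXP1* did not pass the test, at 2.81 ± 0.746 FPKM in wild-type and 3.95 ± 0.404 FPKM in RNAi-labelled fruit (SD, n = 3). Thus 3 of 5 fell, 1 rose and 1 did not pass edgeR's quasi-likelihood test at an adjusted p of 0.05, where 12.3% of all tested genes passed, 5.8% lower and 6.54% higher. The gene that rose, *CEL2*, passed the filter on low counts only through the RNAi-labelled libraries, where it was high. The median log2 fold change was -0.87 over the 5 genes and -0.01 over all tested genes. Beside them, 12 of 17 ripening genes listed for comparison fell and 5 did not pass, with a median of -0.49. All 17 had a negative log2 fold change, as did 8617 of all 16737 tested genes. Without RNAi-labelled library 1 or 2, 6 and 7 of them fell, where 481 of 17004 and 526 of 16985 tested genes were lower. Leaving out or modelling the 2 outlying libraries, a split found in these same data, gave 16 and 17. In those fits 1771 of 16794 and 2720 of 16737 tested genes were lower. In a sample of whole pericarp, fewer cells that express a gene and less RNA per cell cannot be told apart.

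**Figure D1:**
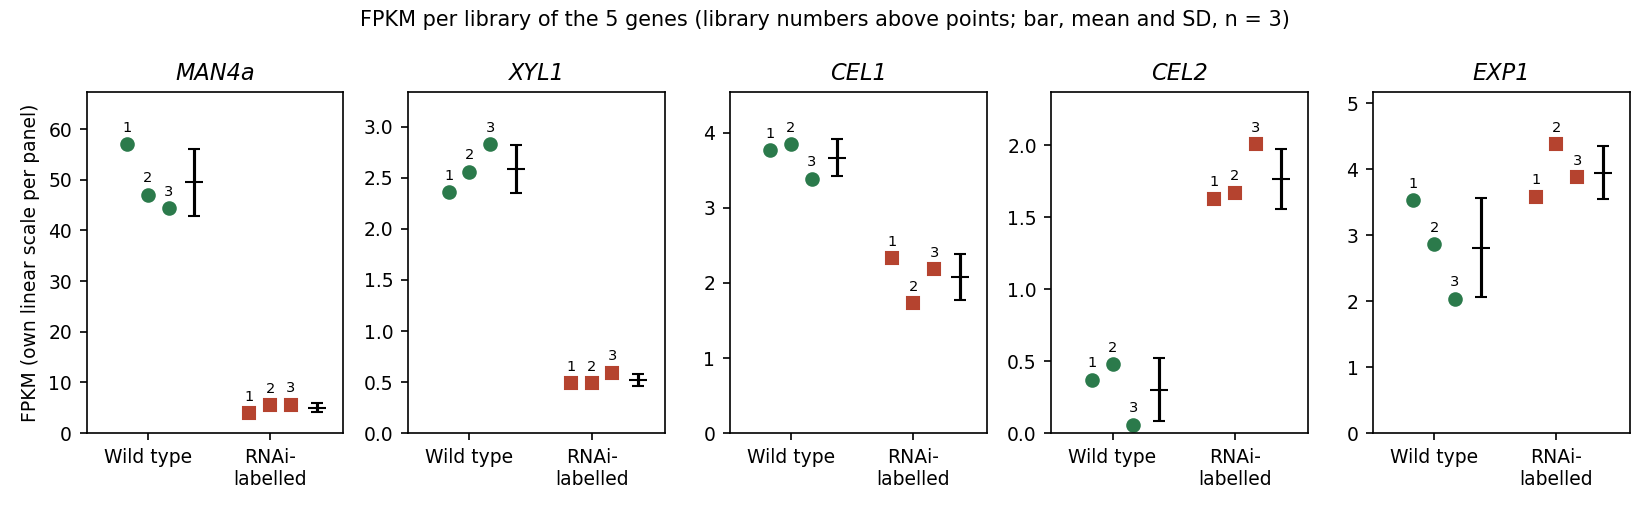
FPKM of each gene in each library (vertical axis, linear, with its own scale in each panel) for wild-type (green circles) and RNAi-labelled fruit (red squares); numbers are library numbers and the black bar gives the mean and SD of 3 libraries. *MAN4a* lies between 44.4 and 57.1 FPKM in wild-type and between 3.94 and 5.65 FPKM in RNAi-labelled fruit, whereas the groups of *EXP1* nearly touch.

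*MAN4a*, whose product cuts the mannan backbone, had the largest difference of the 5. Its FPKM was 57.1, 47.0 and 44.4 in the wild-type libraries, given here and below in the order 1 to 3, and 3.94, 5.55 and 5.65 in those of RNAi-labelled fruit. The lowest wild-type library was thus far above the highest RNAi-labelled one, and the 2 outlying libraries were each the highest of their group. These levels rest on 776, 645 and 618 counts against 54, 77 and 77. The group means were 49.5 ± 6.68 and 5.05 ± 0.96 FPKM (SD, n = 3), with a log2 fold change of -3.35 ± 0.16 SE (95% interval 7.85-fold to 13.2-fold lower, edgeR adjusted p = 3.02e-05). In wild-type fruit *MAN4a* was above 79.5% to 84.2% of the tested genes of a library, and in RNAi-labelled fruit above 19.9% to 26.8%. By the size of its fitted fall it had rank 9 of 16737 tested genes, and rank 5 of the 13029 with a mean of at least 5 FPKM in the higher group. Without these 2 outlying libraries the log2 fold change was -3.31 (edgeR adjusted p = 2.07e-09). That split was found in these same data, and 22% of all tested genes passed in this fit, so its p adds no support.

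*XYL1*, named for a beta-xylosidase, fell at a low level. Its FPKM was 2.36, 2.56 and 2.83 in wild-type libraries and 0.49, 0.49 and 0.59 in RNAi-labelled libraries. The groups did not overlap, as for 31% of all tested genes. The counts behind these values were 52, 57 and 64 against 11, 11 and 13. The coefficient of variation was 9.13% in wild-type and 11% in RNAi-labelled libraries. At such counts counting error alone would give a wider spread, so these percentages do not show how closely the libraries agree. In sum the 35 counts of the RNAi-labelled group have an exact 95% Poisson interval of 24.4 to 48.7 and the 173 counts of the wild-type group one of 148 to 201, which cover counting error only. The log2 fold change was -2.35 ± 0.20 SE (95% interval 3.69-fold to 7.01-fold lower, edgeR adjusted p = 0.000291). It had rank 31 among the falls of all tested genes.

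The cellulase genes went in opposite directions. *CEL1*, for an endo-beta-glucanase also known from abscission zones and flowers, was at 3.77, 3.85 and 3.39 FPKM in wild-type libraries and at 2.33, 1.73 and 2.18 FPKM in RNAi-labelled libraries. The groups did not overlap, as for 31% of all tested genes, but the gap between them was 1.06 FPKM. The counts were 59 to 66 and 30 to 40 per library. The log2 fold change was -0.87 ± 0.17 SE (95% interval 1.4-fold to 2.4-fold lower, edgeR adjusted p = 0.0129). This call was lost without wild-type library 2 (edgeR adjusted p = 0.0581) and without RNAi-labelled library 2 (edgeR adjusted p = 0.0507); the highest adjusted p over all alternatives was 0.0656.

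*CEL2*, for an endo-beta-glucanase known from ripening fruit and abscission zones, was the member that rose. Its FPKM was 0.37, 0.48 and 0.06 in wild-type libraries and 1.63, 1.67 and 2.01 in RNAi-labelled libraries. Every RNAi-labelled library was above every wild-type one, and such a lack of overlap was found for 31% of all tested genes. Wild-type library 3 was the lowest of all. The wild-type values rest on 6, 8 and 1 counts, 15 in sum (exact 95% Poisson interval 8.4 to 24.7), and the RNAi-labelled values on 27, 28 and 33 counts, 88 in sum (70.6 to 108). With a minimum count of 10, *CEL2* was thus tested only because of its RNAi-labelled libraries. A gene this low in both groups would not have been tested. The log2 fold change was 2.47 ± 0.43 SE, the widest error of the 5 (95% interval 2.8-fold to 11-fold higher, edgeR adjusted p = 0.00793). Without wild-type library 3 it was 1.99 (edgeR adjusted p = 0.0135), and without wild-type library 2 it was 2.96 (edgeR adjusted p = 0.0189). Even so, *CEL2* remained a low transcript, above 7.85% to 10% of the tested genes in RNAi-labelled libraries and above 0.0956% to 1.13% in wild-type libraries. The wild-type place depends on the filter, which removed genes low in both groups.

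*EXP1*, the expansin gene best known from ripening tomato fruit, was low in both groups. Its FPKM was 3.53, 2.86 and 2.04 in wild-type libraries and 3.58, 4.38 and 3.88 in RNAi-labelled libraries, on 29 to 49 and 50 to 62 counts. The groups were separated by 0.05 FPKM only, between wild-type library 1 and RNAi-labelled library 1, and such a lack of overlap was found for 31% of all tested genes. The log2 fold change was 0.44 ± 0.22 SE, with an unadjusted p of 0.0778 and an edgeR adjusted p of 0.258. Its 95% interval ran from -0.06 to 0.93 on the log2 scale, so the data allow a rise of up to 1.91-fold and do not show that the level was the same. Without the 2 outlying libraries it was 0.65 (edgeR adjusted p = 0.0632). In that fit *MAN4a*, *XYL1* and *CEL1* fell and *CEL2* rose as in all 6 libraries, where 22% of all tested genes passed, 10.5% lower and 11.4% higher. The expected counts of *EXP1* were whole numbers in all 6 libraries (within 0.005), as were those of the other 4 genes. So were those of 94.5% to 94.9% of the genes listed in a library. Whether the authors' counting gave reads of *EXP1* to a related gene was not tested, and its values hold only as counted. *EXP1* was above 12.1% to 18.9% of the tested genes in wild-type and 18.2% to 22.5% in RNAi-labelled libraries.

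With such unequal changes, the order of the levels per length differed between the groups. In wild-type fruit the order of the means was *MAN4a*, *CEL1*, *EXP1*, *XYL1* and *CEL2*, as in libraries 1 and 2. In library 3 *XYL1* lay above *EXP1*. *CEL1* lay above *EXP1* and *XYL1* in each library, although its range overlapped that of *EXP1*. The ranges of *EXP1* and *XYL1* also overlapped, while *MAN4a* lay above and *CEL2* below all others in each library. In RNAi-labelled fruit the order was *MAN4a*, *EXP1*, *CEL1*, *CEL2* and *XYL1* in each of the 3 libraries. There the ranges of *MAN4a* and *EXP1* overlapped, and so did those of *CEL1* and *CEL2*, while *XYL1* lay below all others.

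The summed FPKM of the 5 genes was 67.1, 56.8 and 52.7 in wild-type libraries and 12.0, 13.8 and 14.3 in RNAi-labelled libraries. *MAN4a* made up 82.8% to 85% of this sum in wild-type and 32.9% to 40.2% in RNAi-labelled libraries. The share of *EXP1* was 3.87% to 5.26% in wild-type and 27.1% to 31.7% in RNAi-labelled libraries, although its own level did not pass the test. The share of *XYL1* was 3.52% to 5.37% and 3.55% to 4.12%, ranges that overlap.

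**Figure D2:**
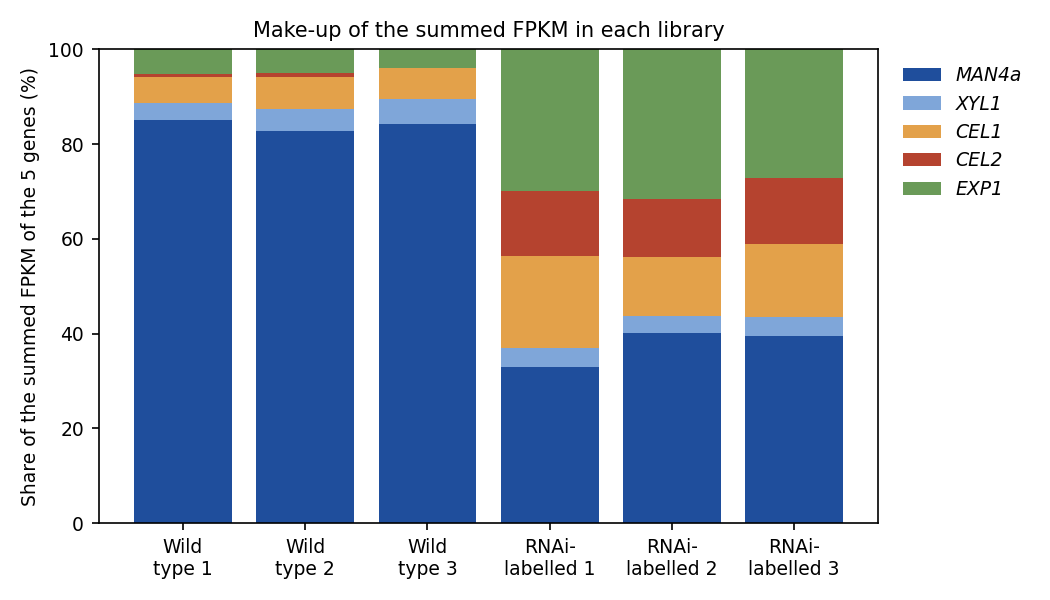
Share of each gene (percent, vertical axis) in the summed FPKM of the 5 genes in each of the 6 libraries (bars). *MAN4a* (dark blue) takes at least 82.8% in wild-type libraries and at most 40.2% in RNAi-labelled libraries, where *EXP1* (green), *CEL1* (orange) and *CEL2* (red) take larger shares. A fall of *MAN4a* raises the shares of the other genes by construction, and the level of *CEL1* itself fell.

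Ratios of FPKM within a library do not depend on how libraries are scaled. The ratio of *CEL1* to *CEL2* was 10.2, 8.02 and 56.5 in wild-type libraries and 1.43, 1.04 and 1.08 in RNAi-labelled libraries. Thus of these 2 transcripts *CEL1* was the higher in wild-type fruit, and the 2 were near equal in RNAi-labelled fruit. The wild-type ratios rest on 6, 8 and 1 counts of *CEL2*, and other cellulase genes were not looked at. The ratio of *EXP1* to *MAN4a* was 0.0619, 0.0608 and 0.046 in wild-type libraries and 0.909, 0.789 and 0.687 in RNAi-labelled libraries. The ratio of *MAN4a* to *XYL1*, the 2 genes with the largest falls, was 24.2, 18.4 and 15.7 in wild-type libraries and 8.04, 11.3 and 9.58 in RNAi-labelled libraries, so *MAN4a* was lower relative to *XYL1* in RNAi-labelled fruit. The two-sided exact permutation test on the log2 ratios gave p = 0.1 for each of the 10 pairs of genes (0.1 after adjustment over the 10 pairs), which is the smallest p that 3 against 3 libraries allow.

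Across the 6 libraries, the log2 CPM of *MAN4a* and *XYL1* had a Pearson r of 0.987, and *CEL1* had an r of 0.935 with *MAN4a* and 0.95 with *XYL1*. *CEL2* had an r of -0.88 with *MAN4a* and 0.864 with *EXP1*. These values describe 6 libraries in 2 groups and are set mostly by the difference between the groups. Among 27 tested ripening and wall genes taken for comparison, those most like *MAN4a* were *ACO5*, for an enzyme of ethylene synthesis (r = 0.998), and *ADH2*, an alcohol dehydrogenase of volatile synthesis (r = 0.997). Those most like *XYL1* were the lipoxygenase gene *LOXC* (r = 0.992) and *ACO5* (r = 0.991). Those most like *CEL1* were *TBG4*, for a beta-galactosidase (r = 0.973), and the phytoene synthase gene *PSY1* (r = 0.961). For *CEL2* and *EXP1* the most alike was Solyc04g008210.1, a gene without a checked name (r = 0.89 and 0.748), followed by the pectin methylesterase gene *PMEU1* (r = 0.783 and 0.526). Of all tested genes, 9 were more like *MAN4a* than *ACO5* was, against 36 for *XYL1*, 94 for *CEL1*, 696 for *CEL2* and 1269 for *EXP1* beyond the best of their comparison genes.

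Other wall genes were looked at as a list of 13 identifiers, of which 10 were tested: 5 fell, 2 rose and 3 did not pass, with a median log2 fold change of -0.35. Over all tested genes 12.3% passed and the median was -0.01. The 3 that did not pass were all alpha-expansin genes other than *EXP1*, whose products loosen walls in the same way. *EXPA3* was at 20.2 ± 1.44 and 19.9 ± 1.25 FPKM (SD, n = 3; log2 fold change -0.08, edgeR adjusted p = 0.731). *EXPA5* was at 12.9 ± 1.84 and 12.2 ± 0.535 FPKM (edgeR adjusted p = 0.65), and *EXPA6* at 15.4 ± 3.23 and 15.5 ± 4.6 FPKM (edgeR adjusted p = 0.939). Each of these 3 was listed above *EXP1* in every library, an order that holds only as far as the authors' counting told these related genes apart. Their 95% intervals reached from -0.32 to 0.17, from -0.44 to 0.19 and from -0.61 to 0.52 on the log2 scale. The 3 identifiers not tested, listed from memory as alpha-expansin genes without a checked name, were at 0 to 0.62 FPKM over all libraries.

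Of the 6 pectin genes in that list, 5 fell and 1 rose, where 5.8% of all tested genes were lower and 6.54% higher. The list was written with results on some of its genes known, so these counts are no test of pectin genes as a set. The polygalacturonase gene *PG2a*, whose product cuts the pectin backbone, had a log2 fold change of -2.97 (edgeR adjusted p = 0.000204), beside -3.35 for *MAN4a*. Its wild-type level of 1244 ± 348 FPKM (SD, n = 3) was far above the 49.5 FPKM of *MAN4a*. The beta-galactosidase gene *TBG4* fell 1.49-fold (edgeR adjusted p = 0.00412), a smaller change than that of *CEL1*, although the difference between these changes was not tested. Solyc04g008210.1 rose 1.47-fold (edgeR adjusted p = 0.0199), less than *CEL2*; this call was lost without wild-type library 2 or 3 and without RNAi-labelled library 1, with an edgeR adjusted p of up to 0.0895 in these fits.

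**Figure D3:**
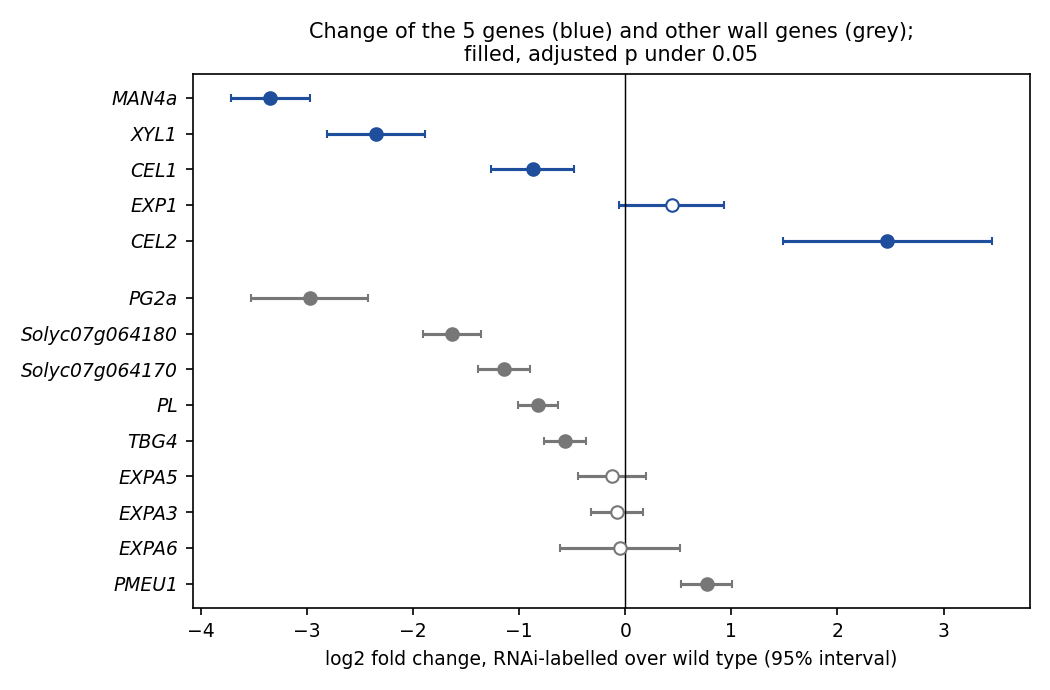
Log2 fold change of RNAi-labelled over wild-type fruit (horizontal axis) with its 95% interval, for the 5 genes (blue) and the other tested wall genes with a checked chromosome (grey); filled points passed edgeR's test. The interval of *EXP1* runs from -0.06 to 0.93, and the intervals of *MAN4a* and *CEL2* lie on opposite sides of 0.

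**Figure D4:**
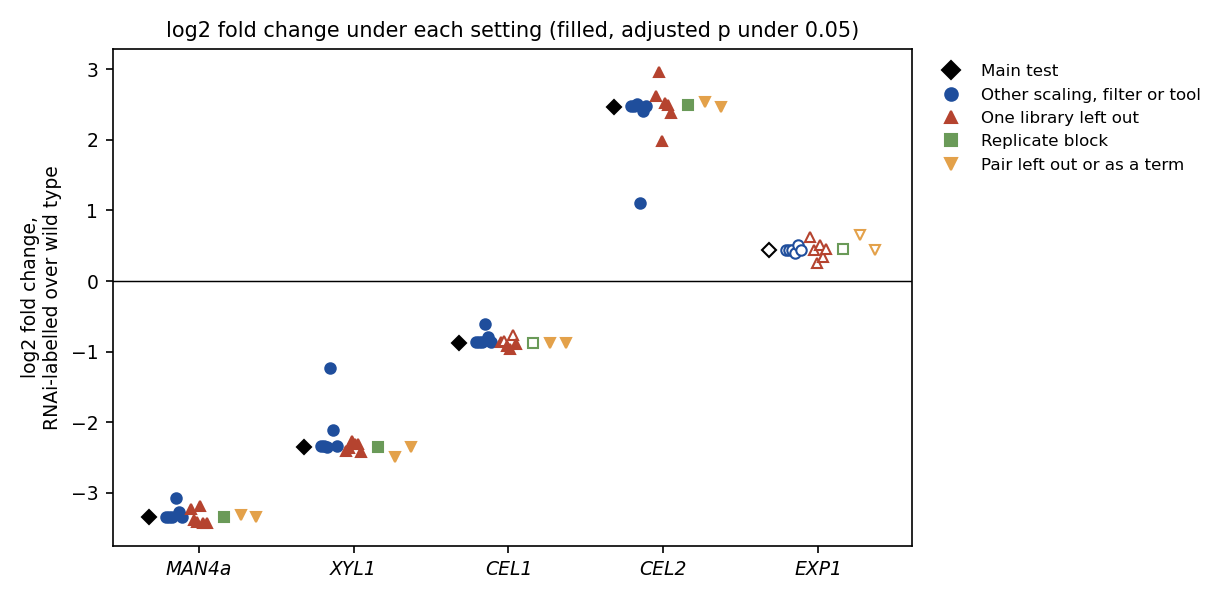
Log2 fold change of RNAi-labelled over wild-type fruit (vertical axis) of each gene under the main test and each alternative setting; filled symbols passed at an adjusted p of 0.05. No setting turned a direction: *MAN4a* stays between -3.43 and -3.07, *CEL1* loses its call in 3 fits, and *EXP1* passes in none.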

How the data were processed

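The deposited files give, per the file headers, an expected count and an FPKM value per gene for each of 6 libraries. An expected count shares reads that match several genes. Aligner, counter, strand and build: not given in the sources used here. Genes absent from a file were taken as 0. Expected counts were rounded, genes filtered with filterByExpr (minimum count 10, minimum total 15), and libraries scaled by TMM. Groups were compared over all 16737 genes with edgeR's quasi-likelihood test and Benjamini-Hochberg adjustment (threshold 0.05), after a check on simulated counts. Standard errors were derived from the log2 fold change and its F statistic. FPKM is as deposited by the authors. Correlations use log2 CPM with a prior count of 2. Alternatives were DESeq2, limma on log2(FPKM + 1) and log2(FPKM + 0.1), other scalings, no filter, a replicate block, each library left out, and 2 fits that leave out or model the pair of libraries that stands apart. Replicates are not said to be separate plants, so the p-values speak only of spread among these libraries, which may be technical.

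Members, lists and the pair were chosen with earlier results of these data known. The named genes are the 5 members, the wall list, the markers (*ACS2* for ripening fruit, *CER6*, *CD1* and *MBP3*), and for each member the 2 most alike of the comparison genes. Names were written from memory. The RefSeq table of SLM_r2.1 lists genes without Solyc identifiers, so each of 39 names was checked only for a RefSeq gene with that name as symbol or synonym on the same chromosome: 32 matched, 5 of them the members, but 2 neighbouring pectin methylesterase genes lay in the opposite order and, like the 7 unmatched, are not named. No coordinates or sequences are given. Tests ran in R 4.3.3 with edgeR 4.0.16, DESeq2 1.42.0 and limma 3.58.1, and figures were drawn in Python 3.11.15 with matplotlib 3.10.9.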

Additional observations from a re-analysis of the deposited data

How the results depend on the processing

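The directions of all 5 genes held under the 15 alternatives run. *MAN4a* (log2 fold change -3.43 to -3.07), *XYL1* (-2.49 to -1.23) and *CEL2* (1.10 to 2.96) passed in each, and *EXP1* (0.26 to 0.65) in none. The values of *XYL1* and *CEL2* nearest 0 came from limma on log2(FPKM + 1), whose pseudocount shrinks changes of low genes by construction. *CEL1* ranged from -0.96 to -0.77 with 1 library left out and did not pass in 2 of these fits. With the replicate number as a block *CEL1* was at -0.88 (edgeR adjusted p = 0.0656), and the calls of the other 4 genes were as before. Solyc04g008210.1 did not pass with the block (edgeR adjusted p = 0.0937). In that fit 6 of the 17 ripening genes fell, where 381 of 16737 tested genes were lower. Deviations of same-numbered libraries from their group means correlated with r = -0.49, 0.28 and -0.52. Wild-type library 1 was closest to RNAi-labelled library 3 (r = 0.70). With these libraries apart from the other 4, such values cannot decide whether the numbers pair the libraries, and the labels do not say. Over all genes the number called was 2065, against 877 with the block, 1108 to 2038 with 1 library left out, 3693 in the 4 libraries without the pair and 5384 with a term for the pair; the cause was not tested, and the last 2 use a split found in these data. Of the other wall genes 6 to 7 passed. Depth limits *CEL2* in wild-type fruit (15 counts in sum) and *XYL1* in RNAi-labelled fruit (35) most.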

Other observations

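Of the 30 tested genes that lie within 3 places of a member in identifier order, 2 fell and 3 rose. This is near the share over all tested genes, of which 12.3% passed edgeR's test, 5.8% lower and 6.54% higher. Beside *MAN4a*, 1 of 6 neighbours fell and 1 rose, with a median log2 fold change of 0.00, against -0.01 over all tested genes. Beside *XYL1*, 1 of 6 fell. Identifier order stands for position along the chromosome, and the neighbours were chosen after the values of the members were seen.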
